A study of Mus musculus with 6 samples.

Results

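The matrix metalloproteases (Mmp), the ADAM and ADAMTS metalloproteases (Adam, Adamts) and their tissue inhibitors (Timp) were followed in mouse embryonic fibroblasts during early reprogramming. Members were taken by name: every gene on the array whose symbol is Mmp, Timp, Adam or Adamts followed by digits, with a letter allowed, 65 of 18193 genes. Each gene was read from the probe set, among those naming that gene alone, with the highest mean over the arrays. The 65 members were 28 Adam, 18 Mmp, 15 Adamts and 4 Timp genes.

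The fibroblasts came from the strain B6CBAF1/J and were grown with serum and leukemia inhibitory factor in a medium for embryonic stem cells. Every culture received SOX2 and KLF4. The combination O(WT)SK added wild-type OCT4, and O(5R)SK added an OCT4 form labelled 5R, a name the labels do not explain. RNA was taken on days 3, 5 and 7 and hybridised to 1 Affymetrix array per combination and day, 6 arrays in all. The labels name no promoter, vector or clone and no separate cultures, so a p-value reflects no more than how far these arrays scatter, and that scatter may be technical. Cells without delivered factors were not analysed here.

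Deposited values were linear intensities with a 2% trimmed mean of 500 on every array, and differences are given as log2(intensity + 16), a scale on which changes of dim genes are understated. A gene was tested when its mean log2 value lay above 5.63, an intensity of 33.5, which kept 12622 genes and 38 of the 65 members. Pairwise correlations between arrays, taken across genes (not independent replicates), had r of 0.970 to 0.991. All 10 fibroblast markers, among them Col1a1, Pdgfra and Thy1, lay above the filter on every array. The brightest probe set reached 34285 on the O(5R)SK day 7 array and at least 40353 on each of the others.

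MMPs cleave collagens and other matrix proteins outside the cell. They are made as inactive precursors that proprotein convertases, plasmin or other MMPs activate. ADAMs are mostly membrane-bound and release the outer parts of growth factors, cytokine receptors and adhesion molecules from the cell surface, while ADAMTS enzymes are secreted and cut proteoglycans and procollagens. TIMPs bind the active site of these enzymes and block it. Fibroblasts are a main source of both the proteases and the inhibitors.

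The first comparison asked how the members changed between day 3 and day 7 in both combinations. The gelatinase gene Mmp9, the macrophage elastase gene Mmp12, the membrane-type Mmp17, Adamts12, Adam12, Adam19 and Adam8 were lower on day 7, by 1.59-fold to 2.44-fold. Adam23 was the only tested member called higher, 1.64-fold. By limma with Benjamini-Hochberg adjustment over all tested genes, 7 of 38 members (18.4%) passed as lower, where 3.68% of all tested genes did. As higher, 1 of 38 members (2.63%) passed, where the share of all tested genes was 6.52%. With the arrays shifted to a common median, 0 members were called higher and 7 lower, and the 823 higher and 464 lower calls over all genes became 578 and 593. At an unadjusted p below 0.05, 20 of 38 members and 30.6% of all tested genes differed between the days.

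The median difference of the tested members, day 7 minus day 3, was 0.07, with 20 positive and 18 negative, and it was -0.03 with the arrays shifted to a common median. Over all tested genes it was 0.03, and 53.4% were positive. Along the course, 5 of 38 members (13.2%) read higher at each step in both combinations: Adam23, Adamts1, Adamts15, Mmp10 and Mmp11. The share among all tested genes was 14.9%. Another 8 (21.1%) read lower at each step in both, namely Adam12, Adam19, Adam9, Adamts12, Mmp12, Mmp14, Mmp9 and Timp1, where 12.9% of all tested genes did.

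**Figure D1:**
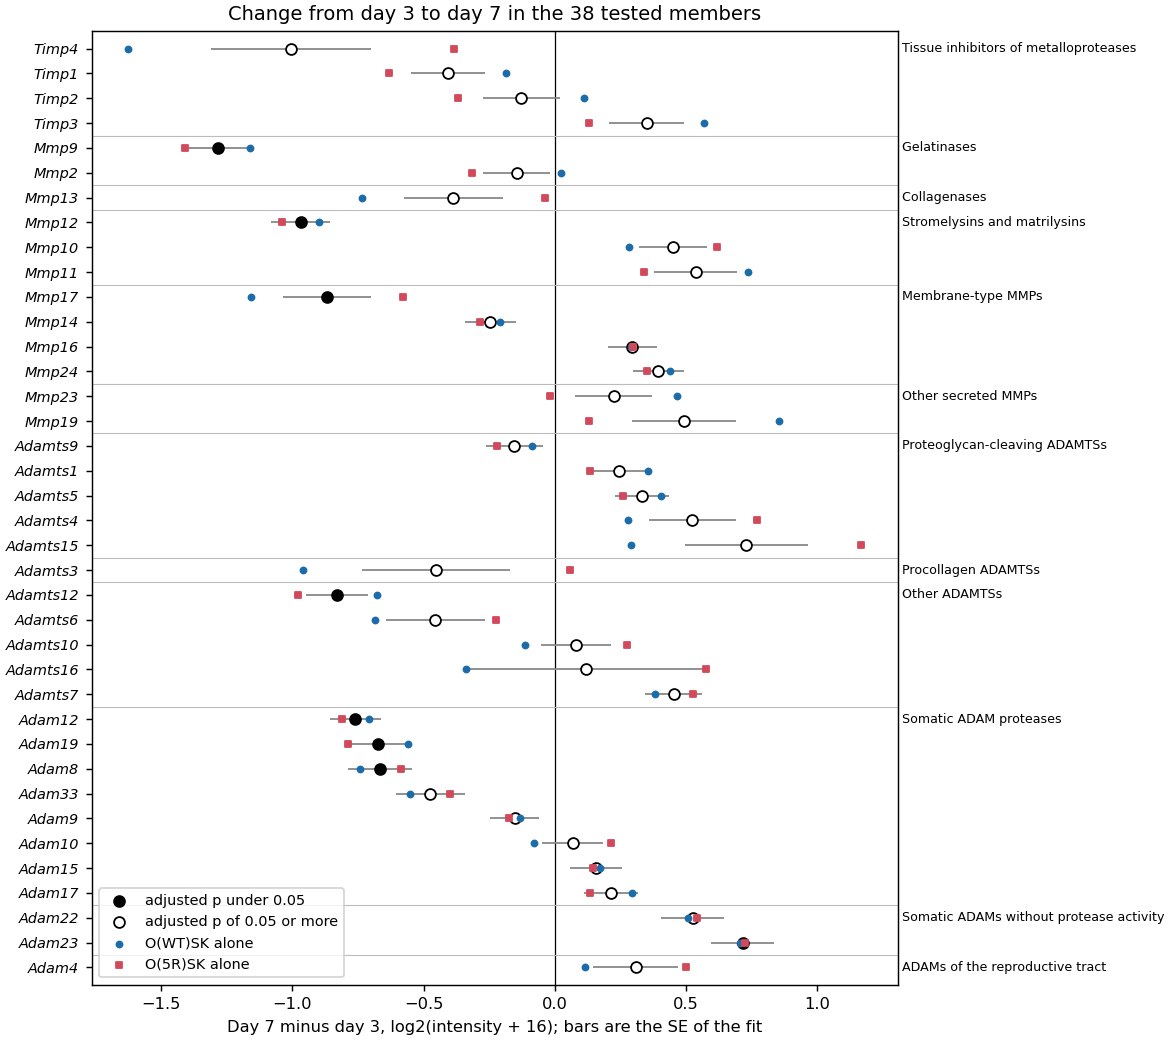
Day 7 minus day 3 in log2(intensity + 16) for the 38 tested members, grouped by role. Large circles are the fitted difference with its SE as a bar, filled where the adjusted p was under 0.05, and small marks are each combination alone, from 1 array per day. The filled circles run from -1.28 for Mmp9 to -0.67 for Adam8 on the left, with Adam23 at 0.72 on the right.

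These calls rest on the 4 arrays of day 3 and day 7 together. With any one of them left out, 0 members and 0 genes of the array were called by limma, while 13 to 19 members still had an unadjusted p below 0.05: 13 and 15 on dropping O(WT)SK day 3 or day 7, 14 and 19 on dropping the O(5R)SK arrays of those days. Without the O(WT)SK or the O(5R)SK array of day 5, 8 members were called, where 1200 and 1146 of all tested genes were. The 8 called members kept their sign in every one of these fits.

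**Figure D2:**
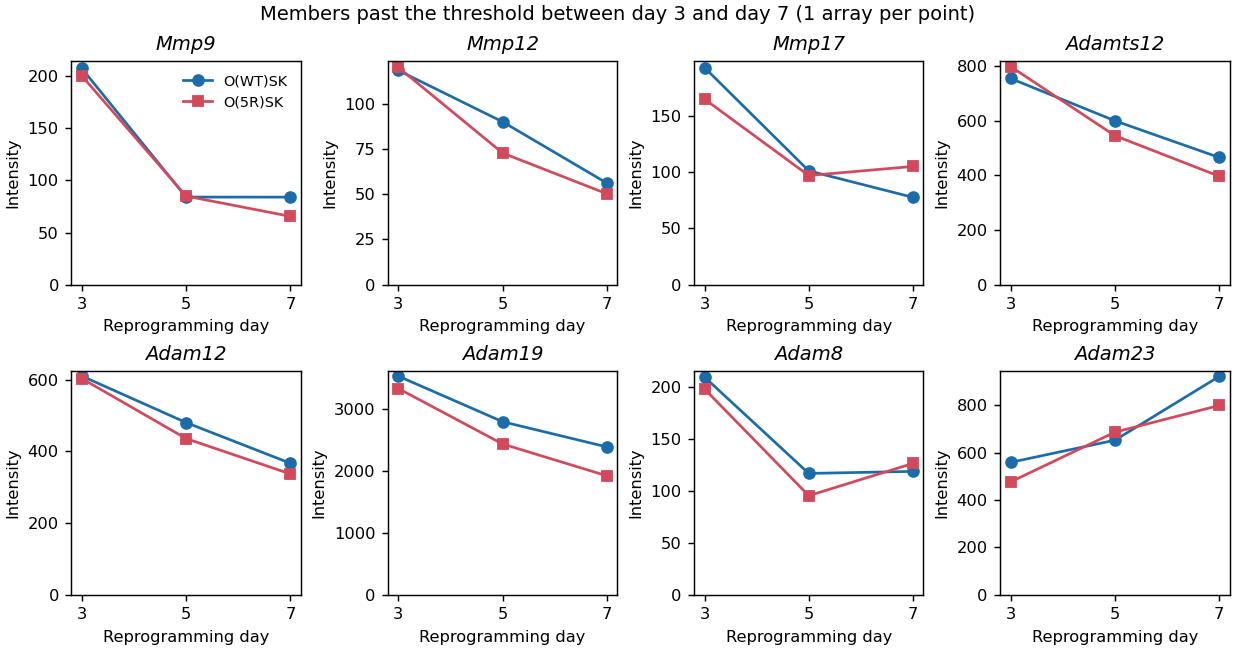
Linear intensity of the 8 called members on days 3, 5 and 7, 1 array per point, with a line for each combination and axes from 0. Both lines end below their start in 7 panels and above it for Adam23, and both day 7 points lie outside the day 3 values in each panel.

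Macrophage markers moved with the members called lower. All 14 listed markers were tested, 10 passed as lower on day 7 and 0 as higher, and their median difference was -0.95. Their summed intensity was 11637 and 11080 on day 3, 6880 and 6212 on day 5, and 5033 and 4769 on day 7, with O(WT)SK first. None of the 14 lay below the filter on every array, and 13 were above it on all. Mmp9, Mmp12 and Adam8 are also made by macrophages. In bulk samples, fewer cells of a type and less RNA per cell cannot be told apart, and the part of macrophages in the members' fall was not tested. Of the smooth muscle markers, 3 of 6 also passed as lower, with a median of -0.72. Of the fibroblast markers, 1 of 10 did (Thy1), with a median of 0.04. The 7 neutrophil markers on the array summed to between 145 and 179 on every array, and 0 of them lay above the filter on all arrays.

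**Figure D3:**
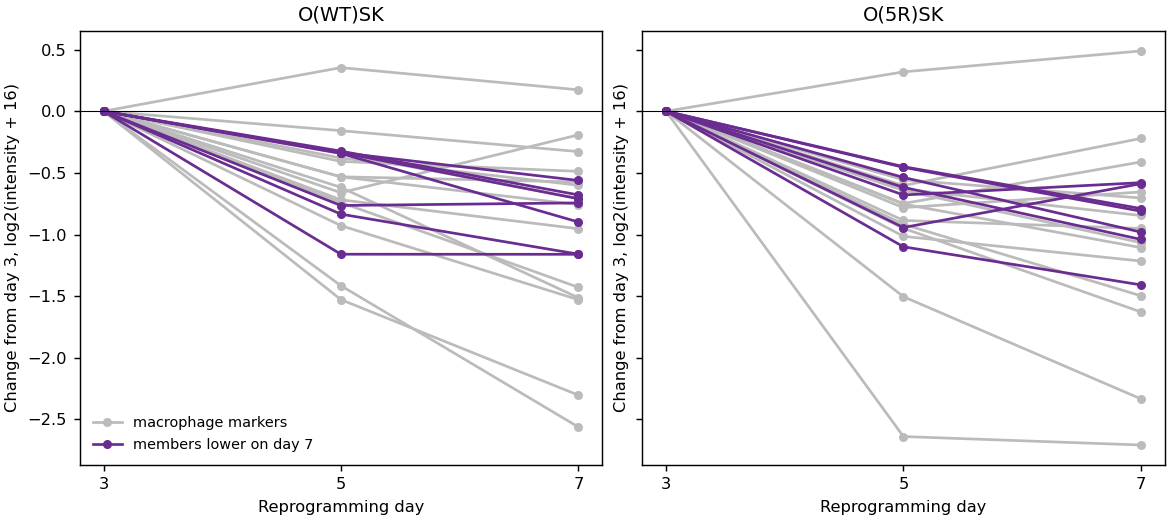
Difference from day 3 of the same combination, in log2(intensity + 16), for the 7 members lower on day 7 (purple) and the 14 macrophage markers (grey), 1 panel per combination and 1 array per point. The median marker difference between day 7 and day 3 was -0.95 and 1 of the 14 markers had a positive one.

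All 4 inhibitors were tested, and here as for the genes that follow the values of days 3, 5 and 7 are given in this order. Timp1, an inhibitor of most secreted MMPs, read 20421, 19288 and 17965 in the O(WT)SK course and 21292, 18101 and 13742 in the O(5R)SK course. Both courses declined, and the day 7 values lay below all day 3 values. The difference was -0.41 ± 0.14 (SE), which did not pass (adjusted p = 0.140).

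Timp2, which inhibits MMPs and also takes part in the activation of pro-MMP2 on the cell surface, gave different courses by probe set. The probe set with the highest mean had intensities of 22058, 23229.8 and 23826 under O(WT)SK and of 22903, 21768 and 17752 under O(5R)SK. Its difference between day 7 and day 3 was -0.13 ± 0.15 (adjusted p = 0.60), with a small gain in one combination and a loss in the other. The 4 other Timp2 probe sets above the filter had positive differences of 0.51 to 0.83, with adjusted p between 0.0606 and 0.114 when each was tested alone. One of them measured 986, 1322 and 1974 in O(WT)SK cells against 785, 1238 and 1267 in O(5R)SK cells, so both day 7 values exceeded both day 3 values. The mean of the Timp2 probe sets gave 0.48 (adjusted p = 0.121), the opposite sign to the probe set with the highest mean.

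Timp3, which is held in the matrix and also inhibits ADAM17 and the aggrecan-cleaving ADAMTS enzymes, read 15719.8, 18374 and 23314 in the O(WT)SK course and 13869.9, 15616 and 15197 in the O(5R)SK course. All 3 O(WT)SK values were above the O(5R)SK value of the same day. The difference between day 7 and day 3 was 0.35 ± 0.14 (adjusted p = 0.190). The 3 other Timp3 probe sets gave 0.30, 0.59 and 0.73. The last of these was the only member probe set past the threshold as higher when each probe set was tested alone (adjusted p = 0.0463), where 3.08% of all probe sets were. It had intensities of 1789.5, 2492 and 3009 under O(WT)SK and of 1219.6, 1881 and 2006 under O(5R)SK, and both combinations gained on day 7.

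Bright genes as a class read low on the O(5R)SK day 7 array. Over the 394 genes with a mean intensity above 10000, the median of O(5R)SK minus O(WT)SK was 0.01 on day 3, -0.08 on day 5 and -0.21 on day 7, where that of all tested genes on day 7 was -0.02. The probe sets used for Timp1, Timp2 and Timp3 are in this range, and the part of the array's bright end in their O(5R)SK values was not tested. Timp4 was dim: it measured 65.2, 51.5 and 10.3 in O(WT)SK cells against 57.1, 74.9 and 40 in O(5R)SK cells. Its day 7 value with O(WT)SK lay under the filter intensity, and the difference of -1.01 ± 0.30 did not pass (adjusted p = 0.111).

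**Figure D4:**
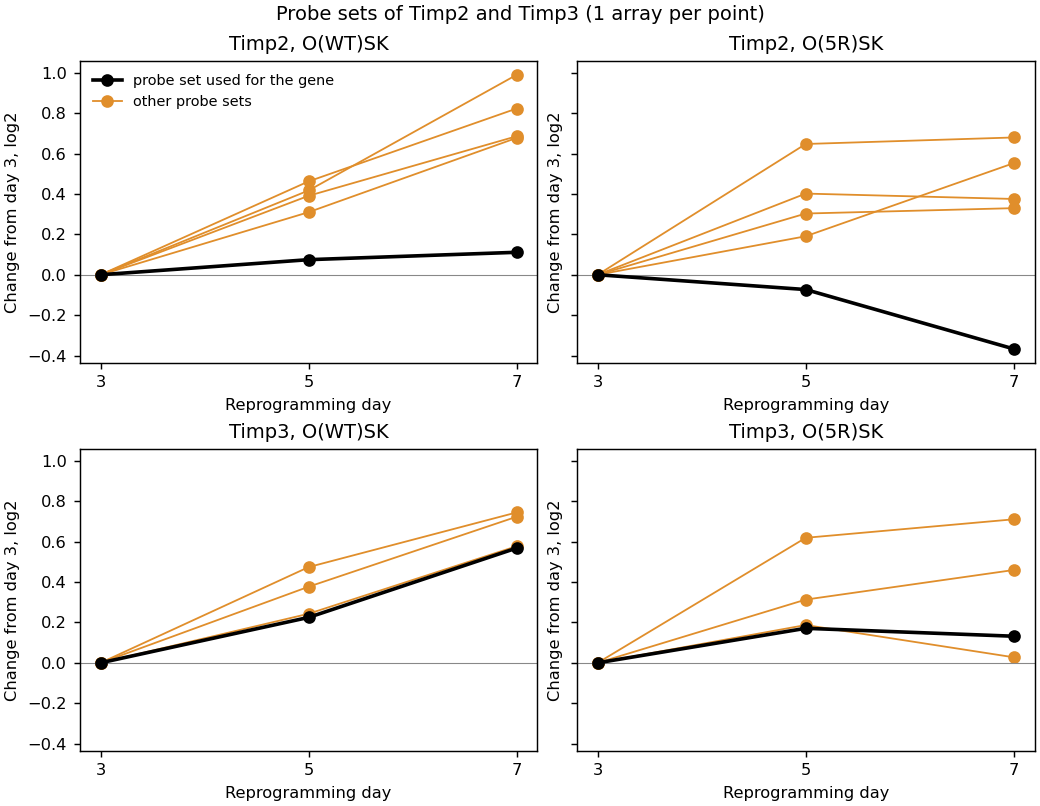
Difference from day 3 of the same combination, in log2(intensity + 16), for each Timp2 and Timp3 probe set above the filter, with the probe set used for the gene in black and the others in orange, 1 array per point. For Timp2 the fitted difference between day 7 and day 3 was -0.13 on the used probe set and 0.51 to 0.83 on the others. For Timp3 it was positive on all, from 0.30 to 0.73.

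Of the gelatinases, which cut denatured collagen and the collagen of basement membranes, Mmp9 had the largest fall of any tested member. It read 208, 84.1 and 84 in the O(WT)SK course and 200.4, 85 and 65.6 in the O(5R)SK course. Day 3 stood apart from all later values in both combinations, since the step from day 3 to day 5 was -1.16 and -1.10 and the step to day 7 was 0.00 and -0.31. The difference was -1.28 ± 0.12, 2.44-fold lower on day 7 (adjusted p = 0.0132). A second Mmp9 probe set, below the filter, gave -1.65. Mmp2, the gelatinase made by most fibroblasts, had intensities of 1367, 1155 and 1389.9 under O(WT)SK and of 1459, 1211 and 1169 under O(5R)SK. Its difference was -0.15 (adjusted p = 0.494), and the values of the days overlapped.

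Among the stromelysins and matrilysins, 3 of 5 members were tested. Mmp12, which degrades elastin, measured 119, 90.2 and 56.2 in O(WT)SK cells against 120.3, 72.9 and 50.3 in O(5R)SK cells. It declined at both steps in both combinations. The difference was -0.97 ± 0.11, 1.96-fold lower (adjusted p = 0.0187). Mmp10, or stromelysin-2, read 73.4, 83.7 and 92.8 in the O(WT)SK course and 63, 72.1 and 105 in the O(5R)SK course. These values were higher at each step, but the difference of 0.45 did not pass (adjusted p = 0.101). Mmp11, or stromelysin-3, which is activated inside the cell by furin-type convertases, had intensities of 727, 805 and 1223 under O(WT)SK and of 874, 1063 and 1110.2 under O(5R)SK. Both day 7 values were above both day 3 values, with a difference of 0.54 (adjusted p = 0.106).

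Collagenases open the triple helix of fibrillar collagen, and 1 of 4 members of this class was tested. Mmp13 measured 70.4, 40.9 and 35.9 in O(WT)SK cells against 41.9, 33.3 and 40.4 in O(5R)SK cells. Only the O(WT)SK day 3 value stood out, and the difference of -0.39 did not pass (adjusted p = 0.243).

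Mmp12, Mmp10 and Mmp13 lie in a run of 7 Mmp genes that directly neighbour each other in the RefSeq gene order, the others being Mmp1a, Mmp1b, Mmp3 and Mmp8, below the filter. Promoters of the 3 tested genes of the run are shown because they hold the same pair of elements, and 1 of these genes was called. RefSeq promoters of GRCm38.p6, from 250 bases before to 50 after the gene start, were searched on both strands for TGANTCA, the core to which AP-1 (FOS and JUN) binds, and for TATAAA, the element that TBP binds. The motifs do not overlap in the sequences below, which are written 5′ to 3′ on the plus strand with both motifs in capitals. The positions are chr9:7502092-7502391 for Mmp10, chr9:7347124-7347423 for the second of the listed Mmp12 starts, and chr9:7272264-7272563 for Mmp13.
Mmp10: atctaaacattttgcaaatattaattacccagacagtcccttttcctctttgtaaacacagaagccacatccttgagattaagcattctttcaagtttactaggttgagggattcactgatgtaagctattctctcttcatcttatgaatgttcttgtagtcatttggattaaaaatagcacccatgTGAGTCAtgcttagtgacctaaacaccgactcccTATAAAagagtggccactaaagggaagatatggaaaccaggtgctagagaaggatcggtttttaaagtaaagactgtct
Mmp12: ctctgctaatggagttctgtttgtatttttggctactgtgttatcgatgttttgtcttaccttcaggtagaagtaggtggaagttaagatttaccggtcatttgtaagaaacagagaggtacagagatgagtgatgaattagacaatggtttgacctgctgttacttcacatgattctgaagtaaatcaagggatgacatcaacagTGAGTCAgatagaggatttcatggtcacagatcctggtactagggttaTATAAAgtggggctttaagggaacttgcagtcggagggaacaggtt
Mmp13: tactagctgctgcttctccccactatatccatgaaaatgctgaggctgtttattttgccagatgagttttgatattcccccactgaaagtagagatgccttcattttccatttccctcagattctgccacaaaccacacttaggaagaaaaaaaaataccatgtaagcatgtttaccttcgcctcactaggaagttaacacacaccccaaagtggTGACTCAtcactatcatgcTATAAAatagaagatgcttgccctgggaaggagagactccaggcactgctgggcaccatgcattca

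In these 3 promoters TGANTCA lay before TATAAA, with 34, 48 and 19 bases between the motif starts in Mmp10, Mmp12 and Mmp13. TATAAA began 29 bases before the listed gene start in Mmp10 and 16 before it in Mmp13, but 4 after it in Mmp12. The other listed Mmp12 promoter held neither. Across the run, 6 of 8 promoters held TGANTCA and the same number held both motifs. Of all 32851 promoters, 7.81% held TGANTCA, 13.6% TATAAA and 1.54% both. Among the 42 promoters found for 37 members, 11 (26.2%) held TGANTCA, 12 (28.6%) TATAAA and 8 (19.0%) both. Outside the run the share was 14.7% (5 of 34) for TGANTCA. A match describes letters in this window and is no evidence of binding. Of the 3 tested genes of the run, Mmp12 was the one called, while Mmp10 differed by 0.45 and Mmp13 by -0.39 between day 7 and day 3.

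Membrane-type MMPs are anchored at the cell surface, and all 4 of them among the members were tested. Mmp17, held by a lipid anchor, read 193, 101 and 77.7 in the O(WT)SK course and 165, 97.1 and 105 in the O(5R)SK course. Both day 3 values were above all later ones. The difference was -0.87 ± 0.17, 1.83-fold lower (adjusted p = 0.0470), with steps of -0.83 and -0.68 to day 5 and of -0.32 and 0.10 to day 7. When each probe set was tested alone by limma, the Mmp17 call was lost (adjusted p = 0.0703). Mmp14, the main surface activator of pro-MMP2, had intensities of 11033, 9642 and 9553 under O(WT)SK and of 10534, 9479.9 and 8649 under O(5R)SK. Its difference of -0.25 did not pass (adjusted p = 0.176). Mmp16 and Mmp24, with differences of 0.30 (adjusted p = 0.120) and 0.40 (adjusted p = 0.0723), are described further with the factor comparison. The other Mmp24 probe set above the filter gave a difference between the days of 0.02.

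Of the other tested MMPs, Mmp19 measured 42.2, 38.7 and 89.2 in O(WT)SK cells against 60.5, 47.6 and 67.8 in O(5R)SK cells. The day 7 values were the highest of each combination, with a difference of 0.49 (adjusted p = 0.181). Mmp23 read 308, 291 and 431 in the O(WT)SK course and 331, 279 and 327 in the O(5R)SK course. Only its O(WT)SK day 7 value stood apart, and the difference was 0.22 (adjusted p = 0.366).

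Among the 8 tested somatic ADAM proteases, 3 were called lower on day 7 and 0 higher, where 3.68% and 6.52% of all tested genes were. Of the 5 not called, 3 had positive and 2 negative differences. Adam12, which releases EGF-family ligands and is known from muscle and mesenchymal cells, had intensities of 610.4, 481 and 367 under O(WT)SK and of 603, 436 and 337 under O(5R)SK. It declined at each step, by a difference of -0.76 ± 0.10 in all, 1.69-fold lower (adjusted p = 0.0225). Its second probe set gave -0.37 and did not pass alone (adjusted p = 0.362).

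Adam19, which can shed neuregulins, measured 3528, 2793 and 2386 in O(WT)SK cells against 3328, 2433 and 1919 in O(5R)SK cells. It was lower at each step, with a difference of -0.68 ± 0.11, 1.60-fold lower (adjusted p = 0.0330). A second Adam19 probe set gave -0.72. When each probe set was tested alone, this second one passed (adjusted p = 0.0432) and the one used for the gene did not (adjusted p = 0.0550). Adam8, a protease of myeloid cells, read 209.9, 117 and 119 in the O(WT)SK course and 198, 95.5 and 127 in the O(5R)SK course. Nearly all of its change lay before day 5, with steps of -0.76 and -0.94, followed by 0.02 and 0.36. The difference was -0.67 ± 0.12, 1.59-fold lower (adjusted p = 0.0424). This call was lost when each probe set was tested alone by limma (adjusted p = 0.0672).

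The general sheddases differed little. Adam10, which cuts Notch receptors and E-cadherin, had intensities of 5052, 5111 and 4779.8 under O(WT)SK and of 5124, 5462 and 5952 under O(5R)SK. Its day 7 minus day 3 difference was 0.07 (adjusted p = 0.734), and it turned to -0.03 with the arrays shifted to a common median. Adam17, which releases TNF and EGF-receptor ligands, measured 962, 1124 and 1185 in O(WT)SK cells against 954, 1126 and 1048 in O(5R)SK cells, a difference of 0.21 (adjusted p = 0.242). Adam9 read 15759.7, 14771 and 14365 in the O(WT)SK course and 15682, 14916 and 13911 in the O(5R)SK course. It declined in both, by a difference of -0.15 that did not pass (adjusted p = 0.339). Of the remaining tested proteases of this class, Adam15 differed by 0.16 and Adam33, known from airway mesenchyme, by -0.47 (adjusted p = 0.0931).

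The ADAMs without protease activity act as adhesion proteins. Adam23, a binding partner of integrins and of LGI proteins in the nervous system, had intensities of 559, 652 and 921 under O(WT)SK and of 476, 686 and 799 under O(5R)SK. All later values lay above both day 3 values, and the difference was 0.72 ± 0.12, 1.64-fold higher (adjusted p = 0.0360). In the fit that tested each probe set alone, the Adam23 call was lost: the probe set used had an adjusted p of 0.0583, and the others above the filter gave 0.17 and 0.51 (adjusted p = 0.603 and 0.344). Adam22, also an LGI receptor, measured 83.1, 84 and 125 in O(WT)SK cells against 75.8, 61.4 and 118 in O(5R)SK cells. Both day 7 values were the highest, with a difference of 0.53 that missed the threshold (adjusted p = 0.0643).

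Adamts12, which cleaves cartilage oligomeric matrix protein, was the only ADAMTS member called lower, of 11 tested. It read 754, 599.5 and 465 in the O(WT)SK course and 798, 545 and 397 in the O(5R)SK course, lower at each step. The difference was -0.83 ± 0.12, 1.78-fold lower (adjusted p = 0.0265). Adamts6 had intensities of 491, 315 and 299 under O(WT)SK and of 446, 471 and 380.0 under O(5R)SK, where the combinations parted on day 5, and its difference was -0.45 (adjusted p = 0.190). Adamts7, which also cleaves cartilage oligomeric matrix protein, measured 312, 299 and 412 in O(WT)SK cells against 317, 361 and 464 in O(5R)SK cells. Both day 7 values were above both day 3 values, but the difference of 0.45 did not pass (adjusted p = 0.0714). Adamts10 differed by 0.08, which turned to -0.02 with the arrays shifted to a common median. Adamts16 differed by 0.12 (adjusted p = 0.881), with 68.8, 98.5 and 51 in O(WT)SK cells against 61.9, 36.7 and 100.2 in O(5R)SK cells, so neither combination followed the other.

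Of the proteoglycan-cleaving ADAMTS genes, 0 of 5 tested members passed, and 4 of the 5 had a positive difference, with a median of 0.33. Adamts5, a main aggrecanase of the mouse, read 6503, 8024 and 8615 in the O(WT)SK course and 6189, 7704 and 7416 in the O(5R)SK course. Every later value exceeded both day 3 values, with a difference of 0.33 (adjusted p = 0.113), and its other probe sets above the filter gave 0.35 and 0.57. Adamts1, which cleaves versican and aggrecan, had intensities of 2301, 2792 and 2950.2 under O(WT)SK and of 2589, 2781 and 2846 under O(5R)SK, a difference of 0.25 (adjusted p = 0.207).

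Adamts4, a second aggrecanase, measured 166, 131 and 204 in O(WT)SK cells against 158, 187 and 281 in O(5R)SK cells. The day 7 values were the highest of each combination, with a difference of 0.52 (adjusted p = 0.120). A second Adamts4 probe set above the filter gave 0.08, and with O(WT)SK it was lowest on day 7. Adamts15 read 62.5, 65.1 and 80.1 in the O(WT)SK course and 45, 86 and 121 in the O(5R)SK course. Its difference of 0.73 was the largest positive one of the tested members and did not pass (adjusted p = 0.123). Adamts3, which removes the amino-terminal propeptide of procollagens, had intensities of 232, 171 and 111 under O(WT)SK and of 189, 145 and 197 under O(5R)SK. The combinations ended apart, and the difference of -0.45 (adjusted p = 0.345) became 0.04 without the O(WT)SK day 7 array.

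The 27 members below the filter had intensities from 0.623 to 47.4, and 14 of their 162 values lay above the filter intensity. They include 15 of the 16 ADAMs known mainly from the reproductive tract, among them Adam2, Adam3 and Adam7 of sperm and epididymis. Male germ cell markers read as low, with sums of 114 to 160 over 8 genes and 6 of them under the filter on every array. Adam4 was the tested one of that class. It measured 49.8, 74.4 and 55.3 in O(WT)SK cells against 46.7, 60.2 and 72.7 in O(5R)SK cells, which overlapped between days, with a difference of 0.31. Also below the filter were the collagenase genes Mmp1a, Mmp1b and Mmp8, the stromelysin Mmp3, the matrilysin Mmp7, Mmp20 of tooth enamel, Adam28, and Adamts8, Adamts18, Adamts19 and Adamts20.

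Probe sets of 1 gene did not always read alike. The members had 116 probe sets, and 30 members had more than 1. Of the 19 members with several probe sets above the filter, 15 had the same sign in all of them for day 7 minus day 3 and 4 did not, namely Adam17, Adamts10, Adamts6 and Timp2. For O(5R)SK minus O(WT)SK, 12 of the 19 had the same sign in all of them and 7 did not. Tested singly, 5 of 71 member probe sets passed as lower on day 7, those of Adam12, Adam19, Adamts12, Mmp12 and Mmp9, where 1.59% of all 23234 did, and 0 passed between the combinations.

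The second comparison set 5R OCT4 against wild-type OCT4 over the same days. By limma 0 of 38 members passed in either direction, where 0% of all tested genes did. With a trended robust prior 65 genes were called higher and 17 lower with O(5R)SK, and 26 and 1 with the stricter filter, again with 0 members. At an unadjusted p below 0.05, 4 members and 9.35% of all tested genes differed. The median member difference, O(5R)SK minus O(WT)SK, was -0.07, with 14 positive and 24 negative, against -0.01 over all tested genes, of which 46.8% were positive. On all 3 days, 3 members (7.89%) read higher with O(5R)SK: Adam10, Adamts7 and Mmp16. The share of all tested genes was 15.8%. For Adam10, 2 of the 3 probe sets above the filter were lower with O(5R)SK (-0.51 and -0.25), and the mean of its probe sets gave -0.03. Lower on all 3 days were 8 members (21.1%), Adam12, Adam19, Adam22, Adamts5, Adamts9, Mmp14, Mmp24 and Timp3, against 17.9% of all tested genes. The second Adam12 probe set above the filter gave 0.06. For Adam22 the mean of probe sets, which includes a probe set below the filter, gave 0.13.

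Mmp24, a membrane-type MMP known from neurons, had the smallest adjusted p of the members. It read 57, 85.8 and 83.1 in the O(WT)SK course and 39, 59.6 and 54.1 in the O(5R)SK course. Each O(5R)SK value lay below that of its day, by -0.41, -0.43 and -0.50, and the mean of -0.45 ± 0.08 (SE) did not pass (adjusted p = 0.327). The other Mmp24 probe set above the filter gave 0.04. Timp3 differed by -0.34 ± 0.12 (adjusted p = 0.499), with -0.18, -0.23 and -0.62 on days 3, 5 and 7, and all 4 of its probe sets were lower with O(5R)SK, by -0.51 to -0.29.

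Mmp16, another activator of pro-MMP2, had intensities of 415, 515 and 512 under O(WT)SK and of 486, 598 and 601 under O(5R)SK. It was higher with O(5R)SK by 0.22, 0.21 and 0.23 on the 3 days, and the mean of 0.22 ± 0.08 did not pass (adjusted p = 0.501). All 4 of its probe sets had this sign. Adamts9, which cleaves versican, measured 211, 192 and 198 in O(WT)SK cells against 194, 148 and 164 in O(5R)SK cells. Its difference was -0.23 (adjusted p = 0.533), but the mean of its probe sets gave 0.09.

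Positive means of similar or larger size came from less even differences. Timp4 differed by 0.46 (adjusted p = 0.632), which rests on days 5 and 7. Adamts4 differed by 0.28 (adjusted p = 0.608) and Adamts6 by 0.25, each with a negative value on day 3. The second probe set above the filter gave 0.08 for Adamts4 and -0.20 for Adamts6. Adamts10 read 217, 247 and 199.7 in the O(WT)SK course and 214, 305 and 262 in the O(5R)SK course, a difference of 0.21 that became -0.05 for the mean of its probe sets. Of the 7 members called lower on day 7, Adam19 had the largest difference, -0.20 (adjusted p = 0.588), and Mmp9 had -0.11 (adjusted p = 0.732). For Mmp9 the mean of probe sets, which includes the one below the filter, gave 0.33.

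**Figure D5:**
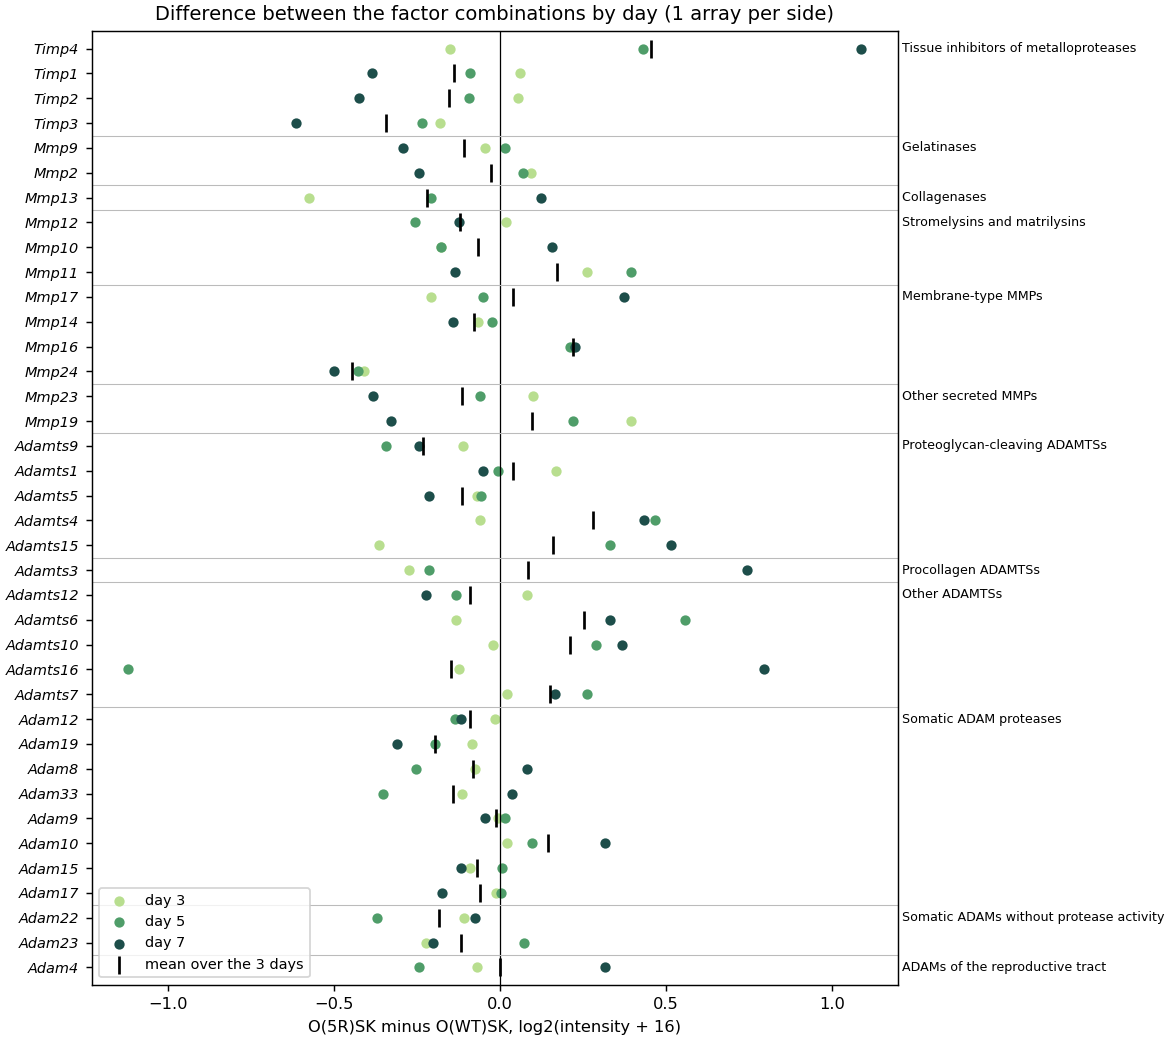
O(5R)SK minus O(WT)SK in log2(intensity + 16) for the 38 tested members by role, 1 point per day from 1 array on each side, with a bar at the mean over the 3 days. The points of Mmp24 (-0.41, -0.43 and -0.50) and Mmp16 (0.22, 0.21 and 0.23) lie close together on 1 side of 0, and those of Timp1, Timp2 and Timp3 are lowest on day 7.

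The third comparison asked whether the course differed between the combinations, as the difference of slopes per 4 days. By limma 0 of 38 members and 0% of all tested genes passed, with 0.647 as the smallest adjusted p of a member. At an unadjusted p below 0.05 there were 2 members and 7.52% of all tested genes. The members were Adamts15, with a slope higher in O(5R)SK by 0.88, and Adamts3, higher by 1.02. Timp1 had a slope difference of -0.45.

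Genes around the proteases were read from lists of activators, inhibitors and substrates. None of the lists had a gene that passed between the combinations. For day 7 against day 3, counts of genes higher or lower are of those that passed the test, to be read against 6.52% and 3.68% of all tested genes. Of 10 tested plasminogen activation and convertase genes, 3 passed as higher and 1 as lower, with 7 positive and 3 negative differences and a median of 0.20. Those higher were Plat, the tissue plasminogen activator (1.06, adjusted p = 0.020), St14, the matriptase of epithelia (1.17, adjusted p = 0.0126), and Pcsk6, a proprotein convertase (0.90, adjusted p = 0.0268). Plaur, the receptor that holds urokinase at the surface, was lower (-0.80, adjusted p = 0.0246).

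Of 8 tested other inhibitors, 3 passed as higher and 3 as lower, with a median of -0.11. Reck, a membrane-anchored MMP inhibitor, had intensities of 649, 873 and 1231 under O(WT)SK and of 671, 816 and 1098 under O(5R)SK, higher at each step. Its difference was 0.80 (adjusted p = 0.0229). Cst3, a cathepsin inhibitor (0.53), and Sfrp1, a Wnt antagonist reported to inhibit ADAM10 (1.45, adjusted p = 0.00848), also passed as higher. Serpinb2 (-1.56), an inhibitor of plasminogen activators, Tfpi2 (-1.36), a plasmin inhibitor, and Serpinf1 (-0.96), a serpin without known protease inhibition, passed as lower.

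Of 9 tested partners of ADAM10 and ADAM17, 1 passed, Tspan17, a tetraspanin that escorts ADAM10 (0.84), and the median was 0.12. Among 27 tested substrates shed by ADAMs, 3 passed as higher, Tgfa (0.67), Il6ra (0.66) and the E-cadherin gene Cdh1 (1.69), and 2 as lower, Csf1r (-0.93) and Alcam (-0.78), with a median of 0.01. Csf1r, the receptor for macrophage colony-stimulating factor, is also 1 of the macrophage markers above. Of 21 tested matrix substrates, 2 passed as higher, Col2a1 (1.20) and Lama1 (1.04), and 0 as lower, with a median of 0.02.

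Of 5 tested ADAMTS-like genes, which lack the protease domain, 1 passed as higher, Adamtsl4 (1.06), and the median was 0.71. Of 9 tested astacin and other metalloproteases, 2 passed as higher, Mme, or neprilysin (1.37), and Ecel1 (2.12). Of 8 tested matrix cathepsins, 1 passed as lower, Ctss, a cathepsin of antigen-presenting cells (-0.90). Among 21 tested regulators of Mmp transcription 1 passed, the cytokine gene Il6 (1.5). The FOS and JUN genes of this list did not pass, with differences from -0.36 (Fosl1) to 0.45 (Jund).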

How the data were processed

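The authors deposited linear intensities for each probe set. The submitters' processing notes name affy; version and settings: not given in the sources used here. Of 45101 probe sets, 34958 name 1 gene in the platform annotation, and 64 control probe sets were left out. The columns of per-sample values left unused numbered 0. Log2(intensity + 16) was computed here from the deposited intensities. The filter was the 40th percentile of probe set means. The number of arrays limits the precision.

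Limma 3.58.1 (lmFit, eBayes) in R 4.3.3 with data.table, version 1.17.8, fitted factor combination and day (3 levels) to all 6 arrays, with 2 residual degrees of freedom and a prior of 2.6. With 1 array per combination and day, the residual of this fit holds any difference in course between the combinations along with technical scatter. The slope fit used day as a number. P-values were Benjamini-Hochberg adjusted over 12622 genes, with a threshold of 0.05. Single days and single combinations have 1 array per side and no test. The scripts were tested on simulated data. Promoters are RefSeq's (GRCm38.p6); all 65 members matched its list of genes. Drawing used Python 3.11.15, pandas 2.3.3 and matplotlib 3.10.9.

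Values on all arrays were to be printed for each tested Timp, each called member, the 5 largest differences in each direction for day 7 and for 5R, and the brightest 3 members of each role; from each list, the called genes. Members and lists were chosen with earlier results of these data known. Alternatives were other pseudocounts, filters, scalings, priors, probe set rules, day terms and leaving out each array; the test of single probe sets was added after seeing the data.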

Additional observations from a re-analysis of the deposited data

Results flagged for a closer look

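Timp2 read higher at both steps with O(WT)SK and lower at both steps with O(5R)SK on the probe set used. The slope difference per 4 days, O(5R)SK minus O(WT)SK, was -0.48 ± 0.19 (SE), with an adjusted p of 0.676 by limma. The opposite directions themselves rest on 1 array per point. The 4 other Timp2 probe sets above the filter read higher on day 7 than on day 3 in both combinations.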

How the results depend on the processing

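The count of members higher on day 7, 1 in the report, was 2 with a pseudocount of 64, 4 with the filter at the 60th percentile or a trended robust prior, and 0 with no filter, with arrays shifted to a common median, or when probe sets of each gene were averaged. With single arrays left out it ranged from 0 to 1. The count of members lower on day 7, 7 in the report, was 0 with no filter and 4 with the filter at the 60th percentile. It was 5 with a pseudocount of 4, with averaged probe sets or with day as a number, and 8 with a trended robust prior. Leaving out single arrays gave 0 to 7. Calls over all genes, 823 higher and 464 lower in the report, also moved with these settings. They were 1247 and 955 of 9879 with the 60th percentile filter and 1570 and 1276 with the trended robust prior. With pseudocounts of 64 and 4 they were 1192 and 776, and 650 and 349. Averaged probe sets gave 574 and 307, day as a number 992 and 606, and no filter 0 and 0. The stricter filter tested 25 members and left out Mmp9, Mmp17 and Mmp12. With no filter all 65 members and 18193 genes were tested. The median difference between day 7 and day 3, 0.07 in the report, was 0.002 to 0.0817 with single arrays left out (0.002 and 0.0176 on dropping the O(5R)SK arrays of day 3 and day 7), 0.0013 with quantile normalization, -0.0576 with no filter and -0.0263 with a common median, which moved the median of all genes from 0.03 to -0.07. The median of O(5R)SK minus O(WT)SK was -0.0431 with no filter, -0.108 with a common median, and -0.0746 to -0.0273 with single arrays left out. The cause of these shifts was not tested. Counts of members between the combinations and of slopes were 0 under every alternative, the fit without day included; over all genes, the trended robust prior called 65 higher and 17 lower with O(5R)SK and 2 slopes, the 60th percentile filter 26 and 1, the pseudocount of 64 called 2 higher and day as a number 3. The 8 called members kept their sign in every fit that held them. Day and combination are terms of the fit, so arrays were compared within day and within combination; the labels give no replicate numbers for a further block. Signal near the filter limits Timp4 and Mmp13, each below it on 1 array, and the 27 untested members. The called Mmp12 was also dim, with 56.2 and 50.3 on day 7 against a filter intensity of 33.5.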
